A study of Mus musculus with 13 samples.

Results

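Genes of intestinal lipid and bile acid handling were followed across mouse enterocytes that carried 1 or no working copy of casein kinase I alpha (CKIalpha) in the gut. The group was given as a list of 40 genes: lipid uptake and efflux at the brush border, fatty acid binding, re-esterification, lipoprotein assembly, bile acid transport, transcription factors and fatty acid oxidation. A gene was measured by a probe set annotated to its symbol alone, and 39 of the 40 had one, among 19938 genes with such a probe set. The exception was Apoc2, a cofactor of lipoprotein lipase, whose probe set was shared with Gm44805 and was not used. Each of the 39 passed the filter on dim genes, which left 16721 genes for testing.

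The arrays fell into 6 groups of 2, which the labels call biological replicates: CKIalpha Het, CKIalpha KO, CKIalpha Het/p21 KO, CKIalpha KO/p21 KO, CKIalpha Het/p53 KO and CKIalpha KO/p53 KO. Het stands for mice heterozygous for a gut-specific knockout of CKIalpha and KO for homozygous mice, so every control carried 1 knockout allele and no wild-type mouse was compared. The p21 KO and p53 KO groups were crosses with mice lacking p21 or p53, and all mice were of a 129/SVJ background. The promoter behind the gut deletion, the age of the mice and the part of the intestine are not given in the sources used here. A further array is titled as the third CKIalpha KO/p53 KO replicate but carries the genotype label of a CKI knockout alone, so it entered no comparison and its values are given on their own.

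Enterocytes take up fatty acids, monoacylglycerol and cholesterol from the lumen, rebuild triglyceride inside the cell and export it in chylomicrons. Sterols can be sent back to the lumen, and fatty acids can be oxidized in mitochondria and peroxisomes. In the distal small intestine the cells also recover bile acids and pass them to the blood. The nuclear receptors LXRα, PPARα and FXR and the factor CREB-H are known regulators of these genes.

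The deposited values are log2 intensities, and array medians lay between 4.96 and 5.12. Levels are compared between arrays for 1 gene at a time, since probe sets differ in brightness. The mean replicate SD was 0.204 in CKIalpha Het and 0.341 in CKIalpha KO/p21 KO, the lowest and highest of the groups. The probe set of Csnk1a1, the gene of CKIalpha, read between 10.44 and 10.80 on the 12 compared arrays and did not separate KO from Het. Whether it lies in the deleted part is not given in the sources used here, so it does not check the labels. In each group, Xist, an RNA of the inactive X chromosome, was at 3.15 to 3.94 on replicate 1 and at 8.91 to 10.1 on replicate 2 (chosen after its values were seen). The groups compared are therefore matched in this respect. The markers listed for the labelled cell type were bright, with 8 of 8 absorptive enterocyte markers between 10.55 and 13.25 on the 12 compared arrays. Epcam and Cdh1 among them mark epithelium in general. Alb and Apoh of hepatocytes and Adipoq and Lep of adipocytes stayed between 2.95 and 3.86 on all 13 arrays, near the array 25th percentiles of 3.59 to 3.73. Other genes of those lists were brighter: Ttr read 4.85 to 6.15, highest on CKIalpha KO/p53 KO replicate 2, and Cidec 7.62 to 9.33.

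With p53 lost, 11 of the 39 members were lower in CKIalpha KO than in CKIalpha Het and 1 was higher. The genes that fell belonged mainly to lipid uptake and efflux, where 6 of 7 were lower, and the steepest drop was that of Enpp7, 37.7-fold. A gene is said to rise or fall where its adjusted p in limma, corrected by Benjamini and Hochberg over all tested genes, was under 0.05. By that rule 6.82% of all tested genes fell and 11.0% rose in this comparison, against 11 and 1 of 39 members. The median log2 difference was -0.60 over the members and -0.06 over all genes. Below 0 were 31 of the 39 differences, next to 9436 of the 16721 genes. In these bulk samples, fewer cells of a type and less RNA per cell cannot be told apart. Both CKIalpha KO/p53 KO arrays lay below both CKIalpha Het/p53 KO arrays for 25 members, where 35.7% of all genes did so, and above them for 3 members, where 28.9% did.

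Across the 4 fits that left out 1 array of this comparison, most of the calls were lost. Each such fit has 1 array fewer, so a lost call does not single out the array left out. The members' median difference was -0.63 without CKIalpha KO/p53 KO replicate 1 and -0.37 without replicate 2. It was -0.55 without CKIalpha Het/p53 KO replicate 1 and also without replicate 2, and that of all genes was between -0.06 and -0.05 in the 4 fits. The direction moved less: between 29 and 34 of the 39 differences were below 0 in the 4 fits, which share most of their arrays. A lone array was assumed there to vary like the other groups.

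In the other backgrounds no member passed the threshold. With p53 and p21 present, limma called 0 of 39, where 0.0239% of all genes were called. At an unadjusted p under 0.05 there were 3 members (7.69%), next to 9.09% of all genes. The members' median difference was -0.08, with 20 of 39 below 0, next to 7714 of the 16721 genes. With p21 lost, limma called 0 of 39, where 1.97% of all genes were called. At an unadjusted p under 0.05 there were 6 members (15.4%), fewer in proportion than the 23.2% of all genes. The median was -0.33 with 29 of 39 below 0, next to 8531 of the 16721 genes. The p21 KO result changed with the array left out. The members' median was -0.64 without CKIalpha KO/p21 KO replicate 1 and 0.10 without replicate 2, where that of all genes was 0.01 and -0.002. Such a fit no longer matches the groups in Xist, so the array and what goes with its replicate number cannot be told apart.

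Averaged over the 3 backgrounds, 14 members fell and 2 rose, where 8.96% of all genes fell and 15.5% rose. The median difference was -0.29 over members and -0.03 over all genes. This average contains the p53 KO comparison and is no separate evidence. Leaving out 1 array at a time changed the number called. The members' median then ran from -0.52 without CKIalpha KO/p21 KO replicate 1 to -0.14 without replicate 2 of that group. Enpp7, Cd36, Npc1l1, Slc27a4, Abcg5, Dgat1, Apoc3, Nr1h3 and Acadl were called in all 12 of these fits.

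**Figure D1:**
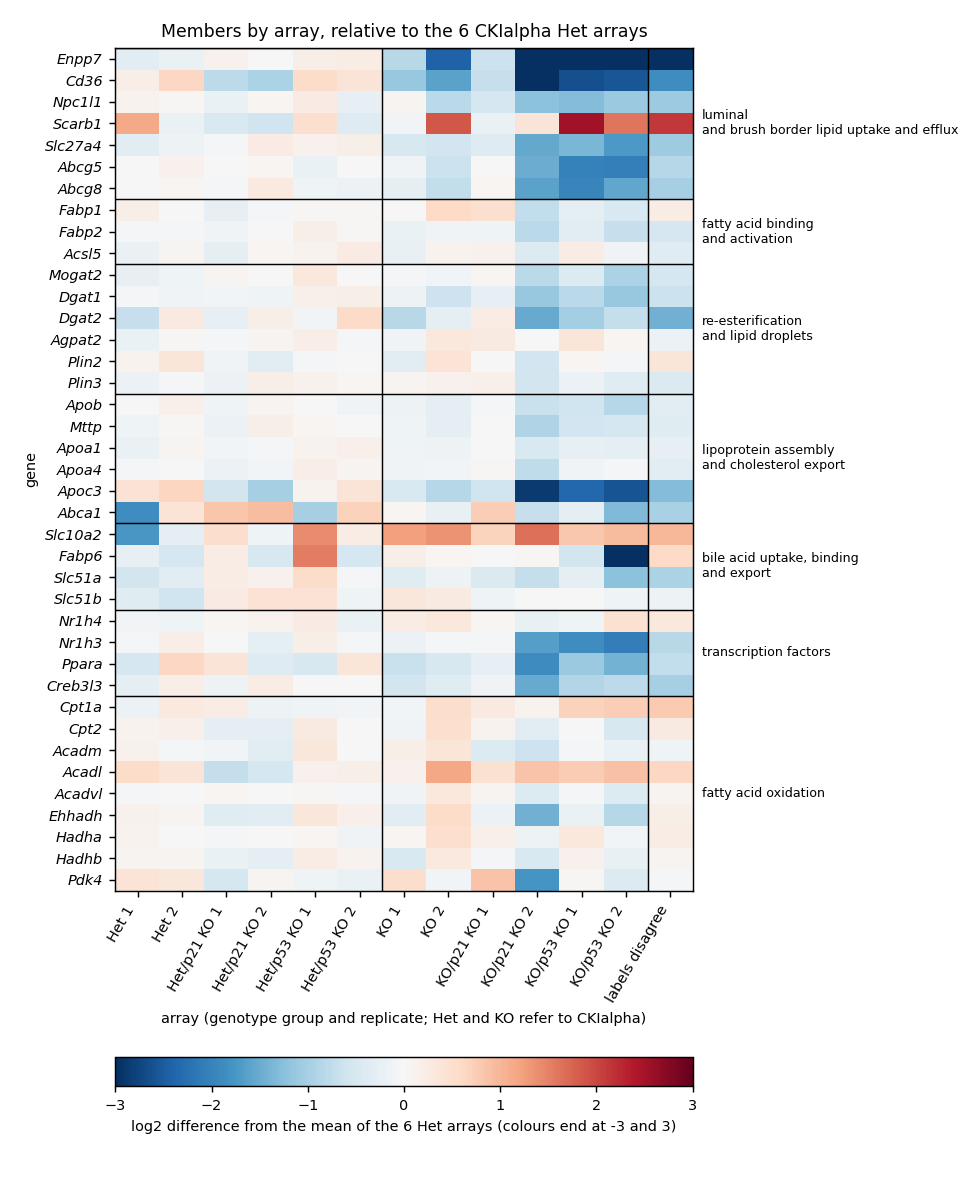
Each row is 1 of the 39 members, grouped by role, and each column 1 of the 13 arrays; colour gives the log2 difference from the mean of the 6 CKIalpha Het arrays, blue for lower and red for higher, with colours ending at -3 and 3. The blue blocks at Enpp7, Cd36, Abcg5, Abcg8, Apoc3 and Nr1h3 lie on both CKIalpha KO/p53 KO arrays and on CKIalpha KO/p21 KO replicate 2, while CKIalpha KO/p21 KO replicate 1 is nearly white for most members.

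The arrays of the CKIalpha KO groups did not move as one, as the map of differences by array shows. Against the mean of the 6 CKIalpha Het arrays, 10 and 13 of 39 members were at least 2-fold lower on the CKIalpha KO/p53 KO arrays, where 2.95% and 4.17% of all genes were. The counts were 1 and 2 on the CKIalpha KO arrays, where 0.580% and 0.957% of all genes were. In CKIalpha KO/p21 KO they were 0 on replicate 1 and 14 on replicate 2, where 0.640% and 4.92% of all genes were, and these replicates also differed more than 2-fold in 781 genes, the most of any group. The array with disagreeing labels had 8 such members, where 2.03% of all genes were, and read 8.42 for Enpp7, 7.81 for Cd36 and 7.66 for Nr1h3. The single CKIalpha Het arrays had between 0 and 2.

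Uptake at the brush border was the group with most changes. Enpp7 encodes alkaline sphingomyelinase, the enzyme that splits dietary sphingomyelin in the lumen. It read 11.11 and 11.22 in CKIalpha Het, 10.60 and 9.00 in CKIalpha KO, 11.55 and 11.42 in CKIalpha Het/p21 KO and 10.77 and 7.56 in CKIalpha KO/p21 KO. It read 11.61 and 11.64 in CKIalpha Het/p53 KO and 7.28 and 5.50 in CKIalpha KO/p53 KO. All 6 KO arrays lay below all 6 Het arrays. The log2 difference in p53 KO was -5.24 ± 0.91 (SE, n = 2 against 2; adjusted p = 0.00913 in limma), next to -1.36 ± 0.91 with p53 and p21 present and -2.32 ± 0.91 in p21 KO, neither of which passed. Without CKIalpha KO/p53 KO replicate 1 the p53 KO difference was -6.13, and without replicate 2 it was -4.35.

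Cd36 encodes a fatty acid translocase. It read 9.86 and 10.28 in CKIalpha Het and 8.52 and 8.06 in CKIalpha KO, 8.89 and 8.71 in CKIalpha Het/p21 KO and 8.98 and 5.62 in CKIalpha KO/p21 KO, and 10.22 and 10.04 in CKIalpha Het/p53 KO and 7.03 and 7.10 in CKIalpha KO/p53 KO. The KO arrays were lower without overlap in the intact and p53 KO backgrounds, while in p21 KO 1 of the KO arrays was above both Het arrays. It fell 8.36-fold in p53 KO (log2 -3.06 ± 0.78, n = 2 against 2, adjusted p = 0.0271 in limma).

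Abcg5 and Abcg8 encode the paired subunits of the transporter that returns sterols to the lumen. In p53 KO, Abcg5 read 10.98 and 11.20 in Het against 9.15 and 9.14 in KO. Abcg8 read 10.28 and 10.21 against 8.42 and 8.84. Both fell, Abcg5 3.84-fold and Abcg8 3.06-fold, and the KO arrays lay below the Het arrays. With p53 and p21 present Abcg5 was 11.17 and 11.32 in Het and 11.07 and 10.54 in KO, so those arrays did not overlap either, but the difference of -0.44 did not pass. In CKIalpha KO/p21 KO, Abcg5 was 11.16 and 9.69, with the second array far below the 11.18 and 11.24 of its Het group.

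Npc1l1 encodes the cholesterol uptake channel of the brush border. In p53 KO it fell 2.32-fold, from 12.16 and 11.66 in Het to 10.60 and 10.79 in KO (log2 -1.22 ± 0.31, adjusted p = 0.0283 in limma), a call lost after a further quantile normalization (adjusted p = 0.0561). Slc27a4 encodes the fatty acid transport protein FATP4 and fell 3.22-fold, from 11.48 and 11.53 to 10.00 and 9.64. For Slc27a4 all 6 KO arrays lay below all 6 Het arrays. Averaged over backgrounds, Slc27a4 was lower by a log2 of -1.01 ± 0.18 (adjusted p = 0.00467 in limma).

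Scarb1, which encodes the lipoprotein receptor SR-BI, ran the other way. It read 6.43 and 5.52 in CKIalpha Het/p53 KO and 8.44 and 7.51 in CKIalpha KO/p53 KO, without overlap, a difference of 2.00 ± 0.64 that missed the threshold (adjusted p = 0.0563 in limma). CKIalpha KO replicate 2, at 7.78, was also above both CKIalpha Het arrays, at 7.06 and 5.70, but replicate 1 was at 5.83. Scarb1 was the 1 gene of the 7 whose difference in p53 KO was above 0.

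**Figure D2:**
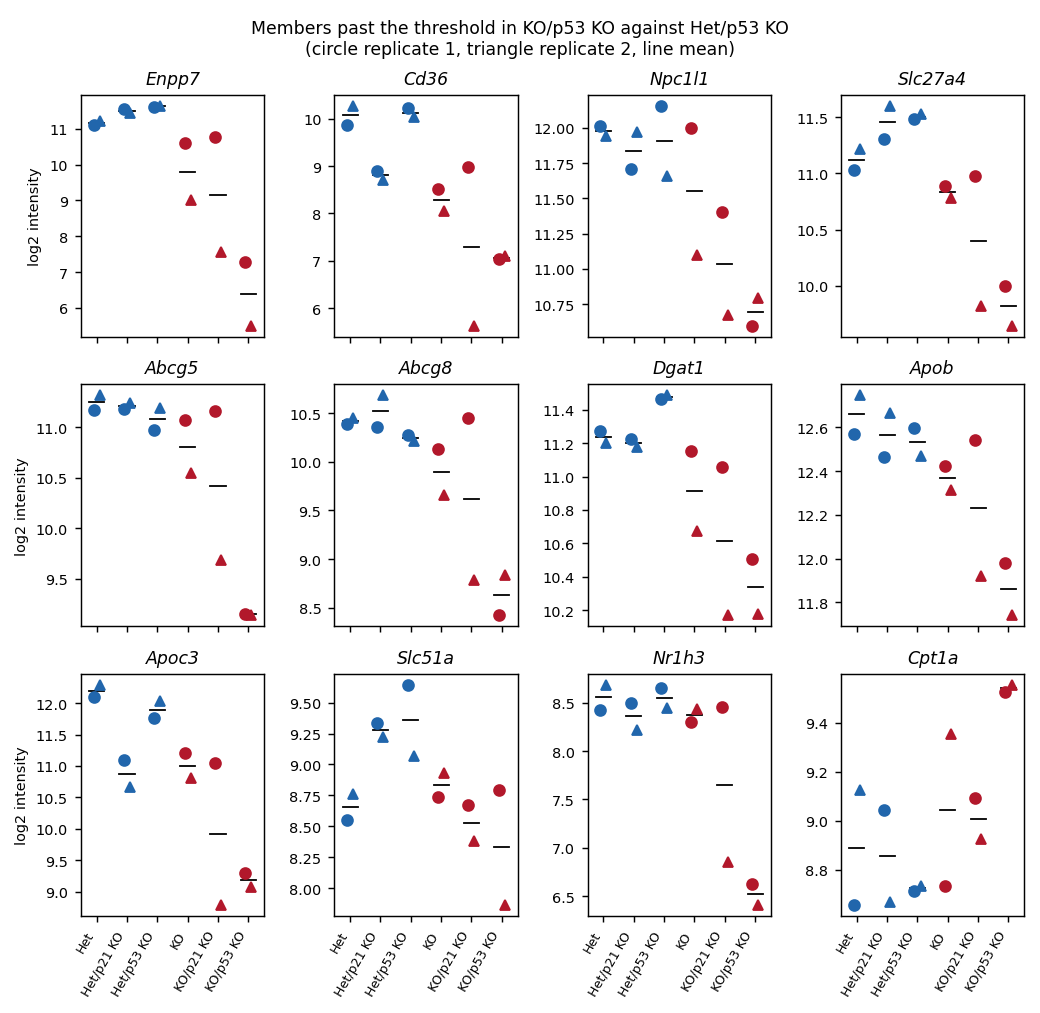
Panels show the log2 intensity of the 12 members past the threshold in CKIalpha KO/p53 KO against CKIalpha Het/p53 KO, in all 6 groups; circles are replicate 1, triangles replicate 2 and lines group means, with blue for CKIalpha Het and red for KO, and each panel has its own axis. In 11 panels the CKIalpha KO/p53 KO pair lies below the CKIalpha Het/p53 KO pair, and Cpt1a shows the reverse order; the CKIalpha KO/p21 KO pair is split in most panels.

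The sequence upstream of 5 genes is shown because Abcg5 and Abcg8, which fell together, start from opposite strands of a shared stretch, because Enpp7 and Cd36 fell furthest, and because Fabp1 did not pass and yet holds a motif 2 times. The sequences are from RefSeq (GRCm38.p6), and 35 of the 40 genes have a promoter window there, reaching 250 bases before to 50 bases after the start. The stretch between the Abcg5 and Abcg8 starts is chr17:84683012-84683120, 109 bases on the minus strand. The 250 bases before the start of Enpp7 are chr11:118987931-118988180 on the plus strand, those before Cd36 are chr5:17835897-17836146 on the minus strand, and those before Fabp1 are chr6:71199629-71199878 on the plus strand. Capitals mark AGATAA, a motif of GATA factors, or TGACCT, the reverse complement of AGGTCA, a half-site bound by nuclear receptors.
Abcg5-Abcg8: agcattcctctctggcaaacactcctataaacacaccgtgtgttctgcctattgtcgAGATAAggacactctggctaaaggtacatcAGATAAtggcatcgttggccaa
Enpp7: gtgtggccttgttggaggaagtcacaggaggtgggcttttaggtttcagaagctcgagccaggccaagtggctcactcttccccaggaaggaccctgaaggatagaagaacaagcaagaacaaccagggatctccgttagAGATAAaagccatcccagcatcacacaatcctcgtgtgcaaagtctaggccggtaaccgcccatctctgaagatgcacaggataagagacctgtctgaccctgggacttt
Cd36: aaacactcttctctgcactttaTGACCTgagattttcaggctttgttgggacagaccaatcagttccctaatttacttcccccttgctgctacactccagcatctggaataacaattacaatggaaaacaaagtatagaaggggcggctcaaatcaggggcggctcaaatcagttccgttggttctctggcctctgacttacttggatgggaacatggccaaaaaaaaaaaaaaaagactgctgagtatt
Fabp1: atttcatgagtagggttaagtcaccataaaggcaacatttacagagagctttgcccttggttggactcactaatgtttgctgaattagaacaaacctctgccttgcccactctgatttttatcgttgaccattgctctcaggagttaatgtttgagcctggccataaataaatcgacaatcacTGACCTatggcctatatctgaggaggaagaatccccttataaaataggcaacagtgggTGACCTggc

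AGATAA occurs 2 times in the Abcg5-Abcg8 stretch and 1 time in the Enpp7 stretch, and AGGTCA, on the other strand, 1 time in that of Cd36 and 2 times in that of Fabp1, which did not pass. Searched on both strands, AGATAA was in a window of 7 of the 35 members, next to 11.2% of all 32851 windows of that length. Among members with a window that fell in p53 KO, it was in one of 3 of 9. These 3 are Enpp7, Abcg5 and Abcg8, and the last 2 share the matched stretch. AGGTCA was in a window of 12 of the 35 and 3 of the 9, next to 16.3% of all windows. Among the 25 measured members with a window that did not fall, AGATAA was in one of 4 and AGGTCA in one of 8. Members were counted by gene and the background by window, so the shares of members and of all windows are not on one scale. A match is a description of the letters and shows no binding.

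Of the fatty acid binding and activation genes, none of 3 passed in p53 KO, though Fabp2 had an unadjusted p under 0.05. Fabp1, the liver-type fatty acid binding protein, read 11.76 and 11.77 in Het and 11.44 and 11.27 in KO. Fabp2, the intestinal type, read 13.21 and 13.07 against 12.70 and 12.35, a difference of -0.62 ± 0.21 (adjusted p = 0.0676 in limma). Acsl5, which activates fatty acids to acyl-CoA, overlapped at 12.30 and 12.42 against 12.40 and 12.07. Averaged over the 3 backgrounds Fabp2 fell by a log2 of -0.38 ± 0.12 (adjusted p = 0.0450 in limma). That call was lost with an intensity trend in the variance estimate (adjusted p = 0.0512), and it held in 2 of the 12 fits that left out 1 array. The 6 KO arrays of Fabp2 lay below its 6 Het arrays, but nearly tied, with 12.913 as the highest KO and 12.916 as the lowest Het value.

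Of the 6 re-esterification and lipid droplet genes, Dgat1 was the 1 that fell in p53 KO. Dgat1 catalyses the last step of triglyceride synthesis. It read 11.27 and 11.20 in CKIalpha Het and 11.15 and 10.67 in CKIalpha KO, and 11.46 and 11.49 in CKIalpha Het/p53 KO and 10.50 and 10.18 in CKIalpha KO/p53 KO. It fell 2.20-fold in p53 KO (log2 -1.14 ± 0.27, adjusted p = 0.0207 in limma), and all 6 KO arrays lay below all 6 Het arrays. The nearest of these were at 11.151 in KO and 11.177 in Het. Mogat2, which acylates monoacylglycerol, read 10.47 and 10.18 against 9.74 and 9.22 in p53 KO. Its difference of -0.85 ± 0.27 missed the threshold (adjusted p = 0.0528 in limma). Dgat2, the other diacylglycerol acyltransferase and a neighbour of Mogat2 on chromosome 7, differed by -1.11 ± 0.52 (adjusted p = 0.159 in limma). The droplet coat genes Plin2 and Plin3 and the acyltransferase Agpat2 differed by between -0.37 and 0.13, and none passed.

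Of the 6 lipoprotein and cholesterol export genes measured, Apoc3 and Apob fell in p53 KO. Apoc3 encodes an inhibitor of lipoprotein lipase. It read 12.09 and 12.30 in CKIalpha Het, 11.21 and 10.80 in CKIalpha KO, 11.09 and 10.66 in CKIalpha Het/p21 KO and 11.05 and 8.79 in CKIalpha KO/p21 KO. It read 11.76 and 12.03 in CKIalpha Het/p53 KO and 9.30 and 9.07 in CKIalpha KO/p53 KO. The p53 KO arrays separated by genotype, as did those with p53 and p21 present, but the p21 KO arrays did not. It fell 6.57-fold in p53 KO (log2 -2.72 ± 0.55, adjusted p = 0.0132 in limma).

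Apob, the structural protein of chylomicrons, read 12.60 and 12.47 in CKIalpha Het/p53 KO and 11.98 and 11.74 in CKIalpha KO/p53 KO, a 1.60-fold fall (adjusted p = 0.0440 in limma). After a further quantile normalization that call was lost (adjusted p = 0.118). Apoa1 and Apoa4, which lie on either side of Apoc3 on chromosome 9, differed by -0.39 and -0.21 and did not pass. Mttp, the transfer protein that loads lipid onto Apob, differed by -0.60 ± 0.25 (adjusted p = 0.121 in limma). Abca1, a cholesterol exporter, overlapped between groups, from 6.91 and 8.60 to 7.63 and 6.59.

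The 4 bile acid genes were all higher in CKIalpha KO than in Het with p53 and p21 present, though none passed, and did not share a direction in p53 KO. Slc10a2 encodes the bile acid importer of the ileal brush border. It read 5.91 and 7.38 in CKIalpha Het and 8.88 and 9.01 in CKIalpha KO, 8.18 and 7.52 in CKIalpha Het/p21 KO and 8.33 and 9.30 in CKIalpha KO/p21 KO. It read 9.08 and 7.87 in CKIalpha Het/p53 KO and 8.47 and 8.60 in CKIalpha KO/p53 KO. KO lay above Het without overlap where p53 was present, and between the Het arrays where p53 was lost. Averaged over backgrounds it rose 2.16-fold (log2 1.11 ± 0.30, adjusted p = 0.0248 in limma), and it was called in 6 of the 12 fits that left out 1 array. In single backgrounds it did not pass, with 2.30 ± 0.52 in the intact background (adjusted p = 0.194), 0.96 in p21 KO and 0.06 in p53 KO.

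Slc51a and Slc51b encode the paired subunits of the transporter that passes bile acids to the blood. In p53 KO, Slc51a fell 2.04-fold, from 9.65 and 9.07 in Het to 8.80 and 7.86 in KO (log2 -1.03 ± 0.29, adjusted p = 0.0368 in limma), and the difference was -0.56 without CKIalpha KO/p53 KO replicate 2. Slc51b overlapped there, from 9.73 and 9.16 to 9.28 and 9.16. In the intact background Slc51b ran from 8.93 and 8.70 in Het to 9.64 and 9.56 in KO, a difference of 0.79 ± 0.19 (adjusted p = 0.228 in limma). Fabp6, the ileal bile acid binding protein, read 10.88 and 8.81 in CKIalpha Het/p53 KO and 8.79 and 5.00 in CKIalpha KO/p53 KO. Its difference of -2.95 ± 1.00 (adjusted p = 0.0664 in limma) rested largely on 1 array at 5.00, since it was -1.06 without CKIalpha KO/p53 KO replicate 2.

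**Figure D3:**
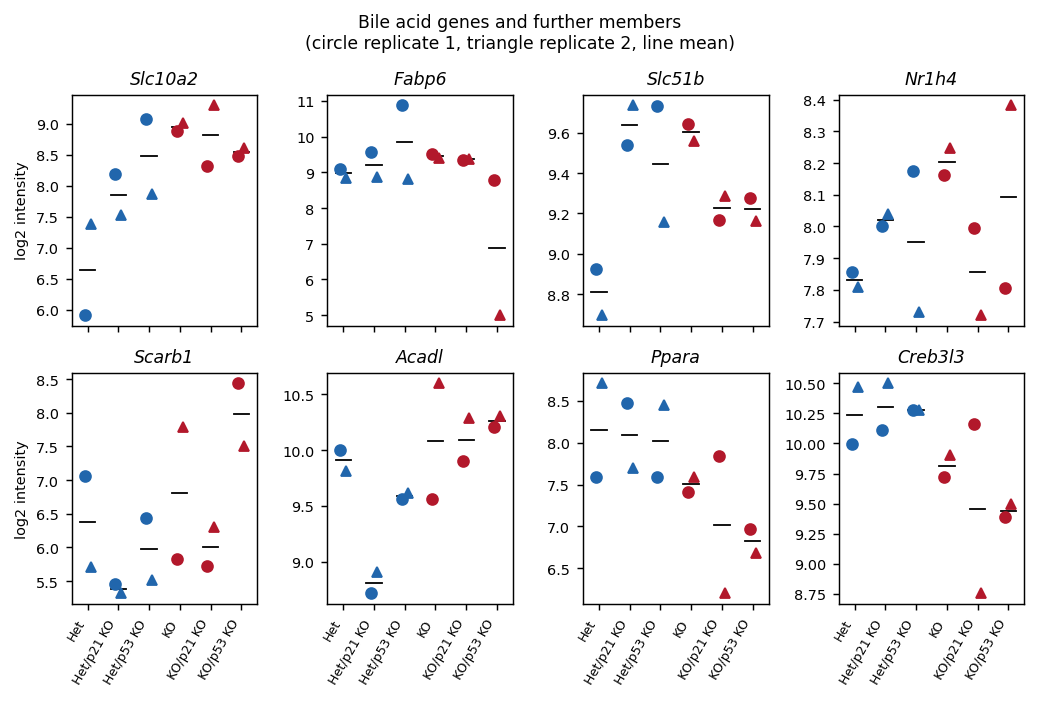
Panels show the log2 intensity of 8 members in all 6 groups; circles are replicate 1, triangles replicate 2 and lines group means, with blue for CKIalpha Het and red for KO, and each panel has its own axis. The Slc10a2 mean is lowest in CKIalpha Het, Fabp6 has 1 CKIalpha KO/p53 KO array at 5.00, and the Scarb1 mean is highest in CKIalpha KO/p53 KO.

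Of the 4 transcription factors, Nr1h3 fell in p53 KO. Nr1h3 encodes LXRα, the oxysterol receptor known to control Abcg5, Abcg8 and Abca1. It read 8.43 and 8.69 in CKIalpha Het, 8.31 and 8.44 in CKIalpha KO, 8.50 and 8.22 in CKIalpha Het/p21 KO and 8.46 and 6.85 in CKIalpha KO/p21 KO. It read 8.66 and 8.45 in CKIalpha Het/p53 KO and 6.63 and 6.41 in CKIalpha KO/p53 KO. Apart from CKIalpha KO/p21 KO replicate 2, the low values were those of CKIalpha KO/p53 KO. It fell 4.10-fold there (log2 -2.04 ± 0.40, adjusted p = 0.0120 in limma).

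Ppara, the fatty acid receptor PPARα, was lower by -0.97 ± 0.31 averaged over backgrounds (adjusted p = 0.0458 in limma). That call was lost without the filter on dim genes (adjusted p = 0.0553) and with array weights (0.0518), and held in 2 of the 12 fits that left out 1 array. In p53 KO it read 7.60 and 8.45 against 6.97 and 6.68 and did not pass. Creb3l3, which encodes CREB-H, fell by -0.70 ± 0.21 averaged over backgrounds (adjusted p = 0.0378 in limma), a call that held in 3 of those 12 fits. In p53 KO it read 10.28 and 10.28 against 9.39 and 9.49 (adjusted p = 0.137). Nr1h4, which encodes the bile acid receptor FXR, read 8.18 and 7.73 against 7.80 and 8.38 and overlapped.

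Of the 9 fatty acid oxidation genes, none fell in p53 KO and Cpt1a rose. Cpt1a encodes the enzyme that commits fatty acids to mitochondrial import. It read 8.66 and 9.12 in CKIalpha Het and 8.73 and 9.35 in CKIalpha KO, and 8.71 and 8.74 in CKIalpha Het/p53 KO and 9.53 and 9.56 in CKIalpha KO/p53 KO. The p53 KO arrays separated, and those with p53 and p21 present overlapped. It rose 1.76-fold in p53 KO (log2 0.82 ± 0.23, adjusted p = 0.0362 in limma).

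Acadl, the long-chain acyl-CoA dehydrogenase, rose 1.63-fold averaged over backgrounds (log2 0.71 ± 0.16, adjusted p = 0.0130 in limma). It read 8.72 and 8.91 in CKIalpha Het/p21 KO and 9.90 and 10.29 in CKIalpha KO/p21 KO, a difference of 1.28 ± 0.28 that came closest to the threshold among members in p21 KO (adjusted p = 0.0509). In p53 KO it read 9.56 and 9.62 against 10.20 and 10.31. In the intact background, 10.00 and 9.82 in Het overlapped with 9.56 and 10.60 in KO. Loss of p21 changed Acadl by -1.09 ± 0.28 in CKIalpha Het, without passing, and by 0.01 ± 0.28 in CKIalpha KO. The difference in p21 KO thus goes with low values in CKIalpha Het/p21 KO.

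The remaining oxidation members did not pass in p53 KO. Cpt2, the second carnitine palmitoyltransferase, and the acyl-CoA dehydrogenases Acadm and Acadvl differed by -0.39, -0.31 and -0.22. The peroxisomal Ehhadh differed by -0.78 ± 0.40 and Pdk4, a kinase that holds back glucose oxidation, by -0.03. Hadha and Hadhb encode the subunits of the mitochondrial trifunctional protein and differed by 0.13 and -0.21. They too start from opposite strands, 272 bases apart, and the 250 bases before the Hadha start, chr5:30154981-30155230 on the minus strand, are shown as the pair that did not pass and holds neither motif.
Hadha-Hadhb: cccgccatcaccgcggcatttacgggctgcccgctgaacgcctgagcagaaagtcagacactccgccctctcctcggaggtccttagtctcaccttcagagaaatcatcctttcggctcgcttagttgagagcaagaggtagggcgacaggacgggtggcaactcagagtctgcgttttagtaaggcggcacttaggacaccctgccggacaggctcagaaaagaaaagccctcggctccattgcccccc

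**Figure D4:**
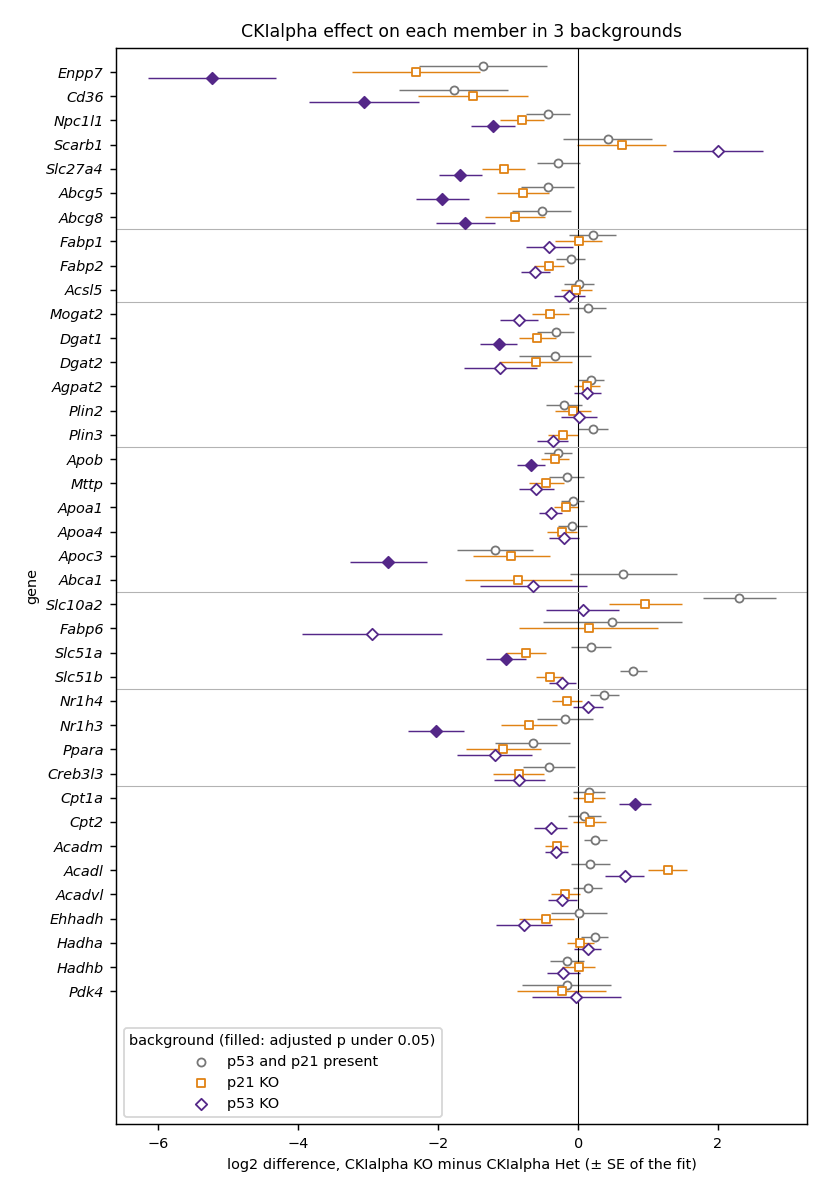
Each row is 1 of the 39 members in order of role; points give the log2 difference of CKIalpha KO minus CKIalpha Het with p53 and p21 present (circles), in p21 KO (squares) and in p53 KO (diamonds), bars the SE of the fit, and filled points an adjusted p under 0.05. The filled points, 12 in all, are p53 KO diamonds, and the Enpp7 diamond lies farthest left at -5.24.

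Other genes of the same routes gave a mixed picture in p53 KO, where 6.82% of all genes fell and 11.0% rose. Of 24 further oxidation and ketone body genes tested, 6 fell and 0 rose: Decr2, Hsd17b4, Decr1, Crat, Acaa2 and Eci1, by -1.46, -1.13, -1.05, -1.30, -1.31 and -0.59. Decr1 and Decr2 are reductases for unsaturated fatty acids, Hsd17b4 is a peroxisomal enzyme, and Crat moves acetyl groups between carnitine and coenzyme A. Their list had 9 of 24 genes at an unadjusted p under 0.05 in limma, near the 34.5% of all genes.

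Of 23 further lipoprotein and triglyceride genes tested, 6 fell and 3 rose, next to the same 6.82% and 11.0% of all genes. Among those with the smallest p, Lipe (hormone-sensitive lipase), Gpat3, Agpat1 and Pla2g12b differed by -2.37, -1.39, -0.81 and -1.11. The glycerol-phosphate acyltransferases Gpat4 and Gpam rose by 0.94 and 1.02. The enzymes of the first step of glycerolipid synthesis were split, with Gpat3 lower and Gpat4 and Gpam higher. Of 19 further bile acid and nuclear receptor genes, 5 fell and 0 rose, next to those shares. These were the nuclear receptor Hnf4g (-1.71), the ileal hormone Fgf15 (-1.45), the coactivator Ppargc1a (-2.36), the receptor partner Rxra (-0.82) and the bile acid conjugating enzyme Baat. Baat read 4.15 and 3.68 on the CKIalpha KO/p53 KO arrays, near the 25th percentiles, so no size is given for it.

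Markers of cell type and of gut region differed as well. The calls in p53 KO below stand next to 6.82% of all genes that fell there and 11.0% that rose. The summed linear intensity of the 8 enterocyte markers was 36581 to 39597 in CKIalpha Het/p53 KO and 23457 to 27686 in CKIalpha KO/p53 KO, and Sis and Vil1 fell (log2 -1.91 and -0.66), as 2 of the 8. The same sum was 32119 to 38078 in CKIalpha Het and 31990 to 33305 in CKIalpha KO, and 34443 to 40072 in CKIalpha Het/p21 KO and 24704 to 34842 in CKIalpha KO/p21 KO. Of the 6 proximal small intestine genes, Gip and Cck, gut hormones of the proximal intestine, fell in p53 KO (log2 -2.56 and -1.50). Onecut2 was the 1 of the 6 that rose (0.56). Pdx1 was also higher, from 4.83 and 4.92 in Het to 6.41 and 5.60 in KO, without passing. In p21 KO 1 of the 6 fell and 0 rose, where 1.97% of all genes were called. In p21 KO all 5 lymphocyte markers measured were lower in KO at an unadjusted p under 0.05 in limma (median log2 -1.48), with a summed level of 2549 to 5272 in Het and 785 to 2069 in KO, and 0 of 5 passed. The summed level of these 5 was 965 to 2457 in CKIalpha Het/p53 KO and 1127 to 2991 in CKIalpha KO/p53 KO, and 0 of the 5 passed, with 0 at an unadjusted p under 0.05 in limma. Of the other marker lists, Cd68 rose among 6 myeloid markers (log2 0.89), Eng fell among 5 endothelial markers (from 4.53 and 4.46 to 3.96 and 4.14, near the 25th percentiles) and Slc26a3 fell among 5 colon genes (-1.05). The part of these in the members' differences was not tested.

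Whether the CKIalpha effect itself differed between backgrounds was tested by the difference of the effects. Against the intact background, limma called 0 members for p53, where 0.0179% of all genes were called, and 10 members (25.6%) had an unadjusted p under 0.05, next to 14.9% of all genes. For p21 it called 0 members, where 0.0% of all genes were called, and 4 members (10.3%) had an unadjusted p under 0.05, next to 8.13%. Enpp7 differed by -3.88 ± 1.29 (adjusted p = 0.257 in limma) and Nr1h3 by -1.85 ± 0.56 (adjusted p = 0.249). Both stand past the threshold in p53 KO alone, but the difference between backgrounds was not shown for them. The smallest member p was that of Slc51b, at -1.02 ± 0.27 (adjusted p = 0.237). All 4 bile acid genes had a difference of effects below 0 with an unadjusted p under 0.05, with Fabp6 at -3.44, Slc10a2 at -2.24 and Slc51a at -1.21, but none passed (adjusted p from 0.237 to 0.305 in limma). The Fabp6 value was -1.55 without CKIalpha KO/p53 KO replicate 2. For p21 the 4 bile acid genes were below 0 as well, 2 of them at an unadjusted p under 0.05 in limma. Slc51b was at -1.20 ± 0.27 there, and none passed. Both tests subtract the same CKIalpha effect of the intact background, so their values are not independent.

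Loss of p53 or p21 by itself moved no member past the threshold in CKIalpha Het mice. For p53, limma called 0 members, where 0.0% of all genes were called. At an unadjusted p under 0.05 there were 3 members (7.69%), next to 5.63% of all genes: Slc10a2, Slc51b and Slc51a, at 1.83, 0.63 and 0.70. For p21 limma called 0, where 0.00598% were called, and 4 members (10.3%) had an unadjusted p under 0.05, next to 5.01%. These 4 were Slc51b, at 0.83 ± 0.19, and Slc10a2, at 1.21 ± 0.52, which were higher, and Acadl, at -1.09 ± 0.28, and Apoc3, at -1.32 ± 0.55, which were lower. Both comparisons use the same 2 CKIalpha Het arrays, so their values are not independent.

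In CKIalpha KO mice, loss of p53 gave 0 calls in limma, where 0.694% of all genes were called. At an unadjusted p under 0.05 there were 11 members (28.2%), next to 22.3% of all genes. Nr1h3 came closest, at -1.85 ± 0.40 (adjusted p = 0.0578), followed by Abcg5 at -1.66 ± 0.37 (adjusted p = 0.0611) and Enpp7 at -3.41 ± 0.91 (adjusted p = 0.0806). Loss of p21 gave 0 calls in limma, where 0.0359% of all genes were called. Acadm at -0.79 and Ehhadh at -0.93 were the 2 members (5.13%) at an unadjusted p under 0.05, next to 2005 of the 16721 genes. With 1 array left out, the Acadm difference ran from -0.89 to -0.69 and that of Ehhadh from -1.56 to -0.30. For p53 loss, that of Nr1h3 ran from -1.96 to -1.74. The number of members called also changed with the array left out.

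For all 6 KO arrays against all 6 Het arrays, 4 members had every KO value below every Het value (Enpp7, Slc27a4, Dgat1 and Fabp2), where 1.96% of all genes did so. No member had every KO value above, where 3.74% of all genes did. The highest KO and lowest Het values were close, at 12.913 and 12.916 for Fabp2, 11.151 and 11.177 for Dgat1 and 10.976 and 11.029 for Slc27a4.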

How the data were processed

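Total RNA of enterocytes was hybridized to 13 Affymetrix arrays, 12 of which were compared. Per the labels' protocols, the authors extracted intensities with Affymetrix Expression Console 1.1 by RMA Sketch and normalized them by the median. Deposited values are taken here as log2 intensities, with the base of the logarithm taken from array medians of 4.96 to 5.12. The number of arrays limits the precision.

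Of 35556 probe sets, 21789 carry 1 symbol in the platform annotation, 1621 several and 12146 none. Where a gene had several single-symbol probe sets, the one with the highest mean was used. A gene was tested if at least 2 arrays exceeded their own 25th percentile, over all probe sets. The 6 groups were fitted together in limma 3.58.1 (R 4.3.3) with 6 residual degrees of freedom, errors are standard errors of the fit, and p-values are two-sided and adjusted within each of 10 comparisons. The computation was tested on simulated data. Replicate numbers were not taken as pairs. The alternatives were no filter, a further quantile normalization, an intensity trend, the replicate block, mean probe sets, array weights and leaving out each array.

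The members and lists were chosen with earlier results of these data known. All measured members may be named, with up to 6 genes per further pathway list by smallest p in p53 KO and up to 3 markers per list by highest mean; other named markers were chosen after their values were seen. Promoter sequences come from RefSeq (GRCm38.p6). The labels call the replicates biological.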

Additional observations from a re-analysis of the deposited data

Results flagged for a closer look

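The array whose labels disagree entered no comparison. On it, Scarb1 read 8.03, above the highest CKIalpha Het array at 7.06, and Cpt1a read 9.61, above the highest CKIalpha Het array at 9.12. Both were noted because the array lies outside the comparisons, and neither difference was tested.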

How the results depend on the processing

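Of the 12 members called in p53 KO, 10 kept their direction and call after a further quantile normalization, which lost Apob (-0.51) and Npc1l1 (-1.05, adjusted p = 0.0561 in limma). The number of members called there was 12 without the filter, with the trend and with mean probe sets, 14 with the replicate block and 15 with array weights. The share of all genes called in these settings is not given here, so the counts do not single out the members. With the replicate block, 1 member (Acadl) was called in the CKIalpha effect in p21 KO and 1 (Nr1h3) in the p53 KO effect in CKIalpha KO mice, against 0. Correlations of replicate differences between groups ran from -0.162 to 0.248, and no label pairs the arrays, so the main test has no block, although Xist divides the arrays by number in every group. Leaving out 1 array gave 0 to 8 members in p53 KO, 0 to 19 in p21 KO, 9 to 23 in the average, 0 to 1 for p53 loss and 0 to 12 for p21 loss in CKIalpha KO mice. In the average, Apob was lost after quantile normalization (adjusted p = 0.0790 in limma) and Ppara with the replicate block (0.0581). No called member reversed under these settings. With 2 arrays per group, small differences cannot be told from replicate spread.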
